A study of Mus musculus with 48 samples.

Results

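VEGF and angiopoietin signalling is followed here through 9 genes: the ligands Vegfa, Vegfb, Pgf and Angpt2, and the receptors Flt1, Kdr, Nrp1, Tek and Tie1. They were picked by symbol for their place in the pathway, with no measured value in the rule, though earlier results of these data were known. They are 9 of the 20300 genes in the table of the whole-tumor mix and 8 of the 14363 genes in the table of CD11b+ cells, which does not list Tek. The VEGF ligands bind receptor kinases on endothelial cells: Kdr carries most of the growth signal of Vegfa, while Flt1 binds Vegfa, Vegfb and Pgf tightly and can act as a decoy, and Nrp1 is a co-receptor. Angpt2, released by activated endothelial cells, binds the receptor kinase Tek and can weaken its signal, with Tie1 as the partner of Tek. Low oxygen turns on Vegfa through the HIF transcription factors, and malignant gliomas are known for dense and leaky vessels.

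Single cells were sequenced from mouse brain tumors grown from GL261, a glioma line, that carried a short hairpin RNA against Selp (shSELP) or a negative control hairpin (shNC). The hairpin was in the implanted cells, so the host cells kept their own Selp, the gene of the adhesion protein P-selectin. The mix holds sorted CD11b+ myeloid cells, other CD45+ leukocytes and the remaining cancer cell fraction combined in equal amounts, with 2 libraries per group at day 16 of the labels. The other experiment holds CD11b+ cells alone, with 1 library per group at day 21. Because the fractions were mixed in equal amounts, shares of cells describe the mixture and not the tumor.

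The methods of the study give another day than the labels and another kit version, and describe a pool of 3 brains per group. It is not stated if each group's 2 libraries were made from different pools, so the spread between libraries covers library preparation at least and may not cover the spread between animals. For the CD11b+ cells, 7 of the 8 entries of the shSELP library carry a description line that names the negative control, while their titles say shSELP, and the directions given for CD11b+ cells rest on the titles. A UMI is the random tag that marks 1 captured RNA molecule. After low-quality cells were left out, the mix kept 8726 of 9172 cells and the CD11b+ experiment 5535 of 5724. The mix libraries shNC 1, shNC 2, shSELP 1 and shSELP 2 held 22874762, 22546742, 17323095 and 25512125 UMIs, and values per library follow this order throughout. The CD11b+ libraries held 12532788 UMIs in shNC and 11406051 in shSELP.

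Each cell was given a cell type by a gate, a rule that asks for UMIs of at least 3 of 8 marker genes of the type and of at least 2 more than for any other type. None of the 9 members is a marker. The tumor gate held 267, 165, 43 and 36 cells in the 4 libraries, the macrophage gate 858, 746, 506 and 786, and the microglia gate 61, 83, 257 and 102. Endothelial cells numbered 19, 29, 334 and 73, mural cells (the pericytes and smooth muscle cells around vessels) 4, 10, 78 and 28, and T and NK cells 484, 541, 441 and 515. Of the gated cells, between 96.3% (macrophage) and 99.1% (endothelial) lay in unsupervised clusters of the same type. The tumor clusters were wider than the gate, with 356, 280, 109 and 184 cells at median depths of 14477.5, 13667, 6521 and 2484.5 UMIs, so the gate kept a smaller part of them in shSELP. As a check on the gate with genes outside it, Emcn, Erg, Sox17 and Cd34 together stood at 1463, 1856, 1744 and 1606 CPM, or UMIs of the gene per 1000000 UMIs of the summed cells, in the endothelial gate.

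The knocked-down gene itself could not be followed in tumor cells. Selp had 1, 1, 0 and 0 UMIs in the tumor gate, or 0.241, 0.361, 0 and 0 CPM, and a count of 0 leaves room for up to 4.76 CPM in shSELP 1 and 6.86 in shSELP 2. The 2 groups therefore overlap within counting error. Such intervals and floors cover counting error alone, here and below. In endothelial cells, which store P-selectin, Selp stood at 79.1, 68.1, 1.98 and 14.1 CPM from 8, 12, 3 and 7 UMIs, held by 2, 2, 1 and 2 cells. The 2 shSELP values were there under the 2 shNC values, with a log2 fold change (shSELP against shNC, where 1 stands for 2-fold) of -3.73 (standard error, SE, 0.77, edgeR adjusted p 0.0524), which did not pass 0.05. edgeR tests a gene's counts against the spread between libraries, and the adjusted p corrects for all genes tested. A low-count filter leaves out genes with few UMIs before the test. Selp passed it in endothelial cells through the shNC libraries alone, where it was high, so its direction is tied to the filter.

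Each member was counted in the gated types of the mix. Of the Vegfa UMIs of the mix, 79.8% lay in the macrophage gate, 3.3% in the tumor gate and 10.7% in cells with no gate. The tumor share of Vegfa was 9.55%, 3.88%, 0.953% and 0.126% in the 4 libraries. For the receptors, the endothelial gate, 455 of the 8726 cells, held 89.0% of the UMIs of Tek, 83.3% of Tie1, 74.6% of Flt1 and 72.6% of Kdr. From shNC 1 to shSELP 1 its share ran from 30.0% to 86.3% for Flt1 and from 49.3% to 79.3% for Kdr. In shNC 1 macrophages held 34.1% of Flt1. Nrp1 was spread wider, with 28.2% of its UMIs in macrophages, 20.3% in endothelial cells, 17.5% in cells with no gate and 16.0% in T and NK cells. Its endothelial share was 2.15%, 7.19%, 41.2% and 15.3% in the 4 libraries. Pooled over the libraries, Angpt2 was divided between endothelial (28.1%), tumor (25.8%) and mural (22.7%) cells. By library its tumor share was 55.2%, 40%, 12.2% and 5.15%, and its mural share 0%, 8.33%, 14.6% and 48.5%. Pgf had 27.8% of its UMIs in cells with no gate, 26.2% in the tumor gate and 23.8% in macrophages. Vegfb had 29.5% in macrophages, 23.0% in cells with no gate and 18.3% in the tumor gate. These percentages follow the number of cells of each type in the mixture, which differed between libraries, so the levels below are given per UMI of each type.

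**Figure D1:**
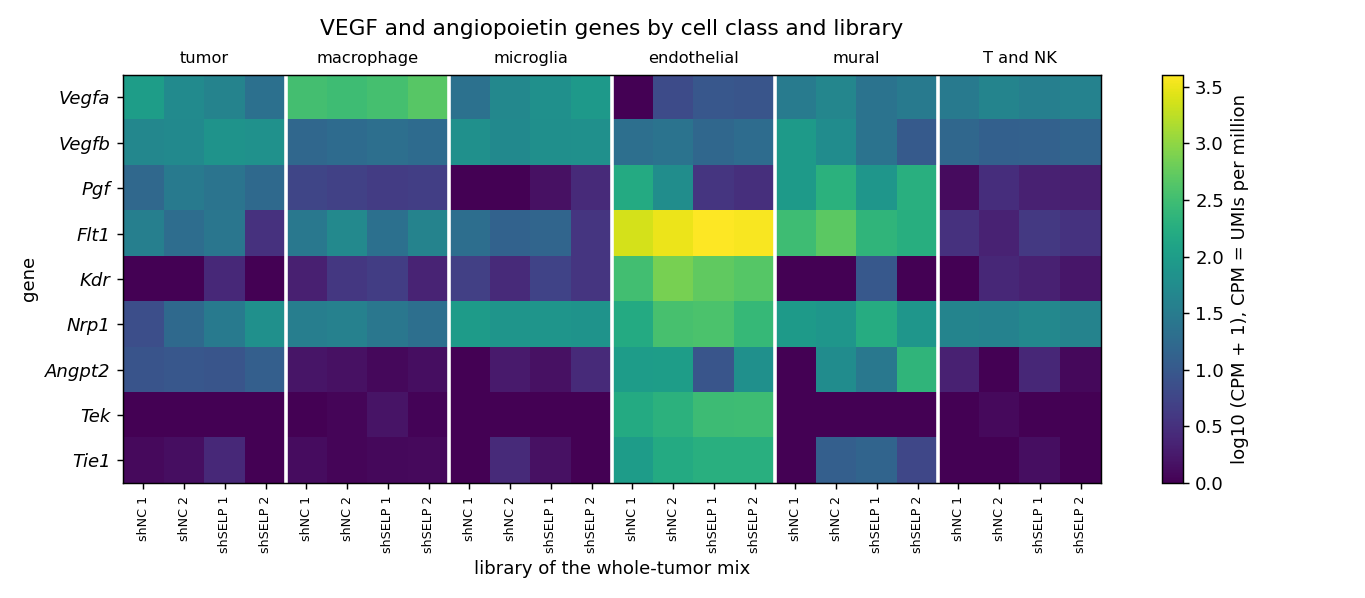
Heat map of log10(CPM + 1) (color) of the 9 members (vertical) in 6 cell types with 4 libraries each (horizontal). Flt1 reaches 4044 CPM in endothelial cells of shSELP 1, and Vegfa 465 CPM in macrophages of shSELP 2.

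Vegfa, the ligand that starts most VEGF signalling, was highest in macrophages among the 6 types followed. Its macrophage values were 333, 307, 347 and 465 CPM. In the tumor gate it stood at 102, 51.6, 39.7 and 20.6 CPM, below the macrophage value in each of the 4 libraries. Microglia had 20.9, 47.1, 62.7 and 87.6 CPM of Vegfa and so overlapped with tumor cells but not with macrophages. Endothelial cells held 0, 1, 13 and 4 Vegfa UMIs, or 0, 5.68, 8.59 and 8.06 CPM, and lay below T and NK cells (29.7, 41.3, 34.5 and 38.4 CPM) in the 3 libraries with a UMI. In a fit by edgeR with the library as a term, Vegfa was lower in tumor cells than in macrophages (log2 fold change -3.44, SE 0.30, adjusted p 3.06e-09, range over the alternatives 7.96e-54 to 7.24e-07). The sums of 4 types went into that fit. Vegfa was also lower in endothelial cells than in macrophages (-6.20, SE 0.43, adjusted p 1.5e-10) and than in tumor cells (-2.75, SE 0.50, adjusted p 0.000123), and higher in macrophages than in mural cells (4.38, SE 0.47, adjusted p 1.73e-07).

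The share of cells with a UMI depends on how deeply a cell was read, so each cell was thinned at random to 2000 UMIs before shares were taken. Vegfa was then found in 41.8%, 39.9%, 41.2% and 52% of macrophages. In T and NK cells, taken for comparison, the shares of Vegfa were 4.45%, 8.30%, 6.57% and 6.09%, below each macrophage share. The tumor gate had Vegfa in 19.6%, 9.38%, 2.38% and 3.23% of thinned cells, below T and NK cells of the same library in shSELP and above them in shNC. The shSELP tumor gates held 43 and 36 cells before thinning, so their shares rest on very few cells and were not tested against T and NK cells. Per UMI, Vegfa in the tumor gate was above T and NK cells in shSELP 1 and below them in shSELP 2. Unthinned, the Vegfa shares were 78.2%, 75.9%, 75.3% and 88.5% in macrophages, 48.7%, 33.3%, 25.6% and 8.33% in the tumor gate, and 9.71%, 13.9%, 10.7% and 14.4% in T and NK cells. Median depths were 11045, 10293, 10115.5 and 16262.5 UMIs per macrophage, 16060, 17213, 14970 and 11748.5 per tumor cell, and 5522, 5354, 4827 and 7296 per T or NK cell. In tumor cells of shSELP 2 the unthinned Vegfa share came from 3 of 36 cells. It was below that of T and NK cells although tumor cells were read more deeply, and the difference was not tested.

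Vegfb, a ligand of Flt1 that adds little to vessel growth, had a tumor-gate level of 45.7, 49.8, 71.4 and 66.3 CPM. Macrophages had 15.1, 17.3, 19.6 and 17.4 CPM of Vegfb, below the tumor value in each library, and the difference passed the test (tumor against macrophage 0.96, SE 0.18, adjusted p 8.79e-05 with edgeR). Microglia, with 62.6, 50.5, 61.0 and 63.5 CPM of Vegfb, overlapped with tumor cells. Endothelial Vegfb was 19.8, 22.7, 15.2 and 18.1 CPM, above macrophages in 3 of 4 libraries and overlapping with them, with a pooled ratio of 0.973 (0.682 to 1.35). The edgeR fit gave Vegfb -0.86 there (SE 0.28, adjusted p 0.0128), a direction that the CPM values do not show, and with thinned cells the value was 0.023 (adjusted p 0.978). This call of Vegfb was also lost without shSELP 1 (0.25), with the looser gate (0.222), with DESeq2 (0.0746) and with clusters (0.0516), out of a range from 0.00383 to 0.978. Against tumor cells, endothelial Vegfb was lower (-1.82, SE 0.29, adjusted p 2.43e-05). Mural Vegfb (92.2, 55.9, 22.4 and 9.58 CPM) overlapped with tumor cells, which were higher in 2 of the 3 libraries fitted (1.46, SE 0.40, adjusted p 0.00686). That call of Vegfb was lost without shSELP 1 (0.108), without shSELP 2 (0.121), with thinned cells (0.15) and with the looser gate (0.0903), out of a range from 0.00213 to 0.15.

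Pgf, which binds Flt1 and not Kdr, was measured from 165 UMIs in the tumor gate, 150 in macrophages and 77 in mural cells. A further 27.8% of its UMIs lay in cells with no gate. Mural cells had Pgf at 92.2, 201, 76.3 and 187 CPM from 3, 18, 17 and 39 UMIs. The tumor gate had 15.4, 28.5, 23.8 and 16.0 CPM of Pgf and macrophages 4.70, 3.97, 3.41 and 3.59, so the 3 types did not overlap. By edgeR, Pgf was lower in tumor cells than in mural cells (-3.07, SE 0.63, adjusted p 0.000725) and higher in tumor cells than in macrophages (1.54, SE 0.51, adjusted p 0.0126). The tumor to macrophage difference of Pgf was lost without shNC 2 (adjusted p 0.161), with thinned cells (0.0899) and with clusters (0.0805), out of a range from 5.78e-07 to 0.161. Pgf was also lower in macrophages than in mural cells (-4.61, SE 0.62, adjusted p 3.59e-06).

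Angpt2 is stored in endothelial cells and released when they are activated. Its endothelial values were 98.9, 102, 7.93 and 64.5 CPM from 10, 18, 12 and 32 UMIs. Tumor cells had 7.70, 8.67, 7.93 and 11.4 CPM of Angpt2 and macrophages 0.600, 0.441, 0.180 and 0.375, so macrophages lay below both and endothelial shSELP 1 lay within the tumor range. In mural cells Angpt2 stood at 0, 55.9, 26.9 and 225 CPM from 0, 5, 6 and 47 UMIs. By edgeR, Angpt2 was higher in tumor cells than in macrophages (3.57, SE 0.54, adjusted p 7.28e-06), in endothelial cells than in tumor cells (2.71, SE 0.47, adjusted p 6.79e-05) and in endothelial cells than in macrophages (6.28, SE 0.52, adjusted p 2.37e-09). Angpt2 was lower in tumor cells (-3.78, SE 0.53, adjusted p 1.41e-05) and in macrophages (-7.35, SE 0.57, adjusted p 2.01e-09) than in mural cells.

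Among the receptors, Flt1 had endothelial values of 2353, 3184, 4044 and 3701 CPM. Macrophages had 27.1, 49.4, 20.1 and 39.9 CPM of Flt1, the tumor gate 34.7, 18.8, 25.4 and 2.29, and mural cells 307, 503, 229 and 182. No value of these 3 types reached the lowest endothelial value, and mural cells lay between. By edgeR, Flt1 was higher in endothelial cells than in tumor cells (7.12, SE 0.47, adjusted p 2.01e-10), macrophages (5.86, SE 0.42, adjusted p 2.89e-10) and mural cells (3.67, SE 0.46, adjusted p 4.86e-06). Flt1 was lower in tumor cells than in macrophages (-1.26, SE 0.41, adjusted p 0.0102), though their values overlapped, tumor cells were lower in 2 of 4 libraries, and the call was lost without shNC 2 (adjusted p 0.09, range 1.63e-07 to 0.09). By pooled UMIs that Flt1 ratio was 0.743 (0.640 to 0.859), a smaller difference than the fitted one. Flt1 was lower than in mural cells in the tumor gate (-3.45, SE 0.49, adjusted p 1.7e-05) and in macrophages (-2.19, SE 0.43, adjusted p 0.000281), the latter lost without the top Scrublet scores, a doublet measure (0.0778, range 2.14e-12 to 0.0778).

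Kdr, the main signalling receptor of Vegfa, had endothelial values of 326, 726, 535 and 447 CPM. Macrophages had 1.10, 2.87, 3.59 and 1.27 CPM of Kdr from 11, 26, 20 and 17 UMIs, and the tumor gate held 1 Kdr UMI in all. Endothelial cells thus lay above both types in each library. By edgeR, Kdr was higher in endothelial cells than in macrophages (7.12, SE 0.25, adjusted p 1.92e-14). By pooled UMIs the Kdr ratio of endothelial to tumor cells was 4165 (counting interval 746 to 164636), and that of endothelial to mural cells, where 2 UMIs were found, was 144 (39.9 to 1193). Tumor to macrophage, the Kdr ratio was 0.0643 (0.00161 to 0.369), also past the edgeR test. In thinned endothelial cells Kdr was found in 50%, 65.2%, 56.7% and 56.7%, against 0%, 0.193%, 0.469% and 0% of T and NK cells. Unthinned, the Kdr shares of endothelial cells were 52.6%, 72.4%, 65.6% and 68.5%, at median depths of 4404, 4027, 3174 and 5167 UMIs, and those of T and NK cells 0%, 0.37%, 0.68% and 0.388%.

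Nrp1, the co-receptor, had UMIs in each type followed here, T and NK cells included. Endothelial cells had 158, 363, 385 and 260 CPM of Nrp1, and macrophages 34.4, 37.8, 25.9 and 19.8. In the tumor gate Nrp1 stood at 6.26, 16.3, 28.6 and 64.0 CPM, which overlapped with macrophages, and microglia had 93.0, 74.0, 75.7 and 69.6. Endothelial Nrp1 was above that of these 3 types in each library, and above that of T and NK cells (41.4, 39.0, 46.9 and 40.1). Macrophages lay below T and NK cells in each library, and tumor cells in 3 of 4. By edgeR, Nrp1 was higher in endothelial cells than in tumor cells (3.86, SE 0.43, adjusted p 2.84e-07) and macrophages (2.47, SE 0.37, adjusted p 8.05e-06). Against mural cells the Nrp1 difference was 1.59 (SE 0.48, adjusted p 0.0201), lost without shNC 2 (0.105), without shSELP 1 (0.0632) and with clusters (0.153), out of a range from 7.24e-08 to 0.153. Tumor against macrophage, Nrp1 was lower in both shNC libraries and higher in both shSELP libraries, so the fitted value over all 4 (-1.39, SE 0.40, adjusted p 0.00516) does not hold for shSELP. It was lost without shNC 1 (0.112), without shNC 2 (0.0728), with DESeq2, another test of counts (0.075), and with thinned cells (0.067), out of a range from 9.36e-10 to 0.112. In tumor cells Nrp1 was below mural cells (-2.27, SE 0.57, adjusted p 0.00417), lost without shSELP 1 (0.0693, range 2.33e-09 to 0.0693).

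Tek and Tie1 had few UMIs in the tumor, macrophage, microglia and mural gates. Cells with no gate held 10% of the UMIs of Tek and 11.7% of those of Tie1. Tek had endothelial values of 158, 204, 295 and 304 CPM, with 0 UMIs in the tumor, microglia and mural gates of all 4 libraries and 0, 1, 3 and 1 UMIs in macrophages. By exact lower limits, endothelial Tek was at least 614-fold above the tumor gate and at least 42.5-fold above mural cells. Against a floor of 3 pooled UMIs these values were 757 and 52.4. Tek was above macrophages by 9.67 in log2 by edgeR (SE 0.35, adjusted p 3.65e-12). Tie1 had endothelial values of 98.9, 159, 186 and 189 CPM. The tumor gate held 1, 1, 1 and 0 Tie1 UMIs and macrophages 3, 1, 1 and 3, so endothelial cells were apart from both in all 4 libraries. Endothelial to tumor, the pooled Tie1 ratio was 481 (163 to 2342), and against macrophages edgeR gave 8.53 (SE 0.30, adjusted p 1.8e-14). Against mural cells, with 0, 1, 3 and 1 UMIs, Tie1 was higher by 4.33 (SE 0.41, adjusted p 1.45e-07). From 3 tumor, 8 macrophage and 5 mural UMIs, Tie1 was lower than in mural cells in the tumor gate (pooled ratio 0.0416, 0.00646 to 0.214) and in macrophages (0.0233, 0.00672 to 0.0906), both past the edgeR test and both lost without shSELP 1 (adjusted p 0.0795 and 0.0505, the highest over the alternatives), the tumor one also with thinned cells (0.0502). In thinned endothelial cells Tek was found in 21.4%, 39.1%, 39.4% and 40%, against 0% of T and NK cells in all 4 libraries. Unthinned, the Tek shares were 47.4%, 62.1%, 61.4% and 68.5% of endothelial cells, and 0%, 0.185%, 0% and 0% of T and NK cells.

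Counted over the members by edgeR, tumor cells differed from macrophages in 7 of 9, against 6571 of 9890 genes (66.4%), with Angpt2, Pgf and Vegfb higher in tumor cells and Tek and Tie1 not called. Kdr, Tek and Tie1 were tested in these fits because of their endothelial UMIs, so a missing call of them between tumor, macrophage and mural cells carries no information. Their calls enter the counts of members through that filter too, so these counts are partly set by it. Endothelial cells differed from tumor cells in 8 of 9 members, against 5385 of 9890 genes (54.4%), and from macrophages in 8 of 9, against 6045 genes (61.1%), with Pgf not called by edgeR in either. Against macrophages DESeq2 called Pgf and not Vegfb, and the pooled Pgf ratio there was 3.43 (2.25 to 5.08). Of the 31 endothelial Pgf UMIs, 16 came from 1 cell of shNC 1 and 10 from 1 cell of shNC 2. The counting interval does not cover that, so the ratio does not describe endothelial cells in general. Mean Pgf was 107 CPM in endothelial cells and 4.33 in macrophages of shNC, and 2.33 and 3.50 in shSELP, the other direction. The members' median log2 fold change was 3.86 against tumor cells (-0.01 over all genes) and 5.86 against macrophages (-0.10 over all genes). With Tek at its lower bound the first median was the same, since Tek stays above it. Kdr, Tek and Tie1 entered both medians through their endothelial UMIs, so these are partly set by the filter. Endothelial and mural cells differed in 6 of 9 members, against 2172 of 9890 genes (22%), with Pgf lower in endothelial cells (-2.91, SE 0.70, adjusted p 0.00417, lost without shSELP 2 at 0.0521 and with clusters at 0.387, range 1.77e-13 to 0.387). Tumor and mural cells differed in 6 of 9 members, against 3522 genes (35.6%), and macrophages and mural cells in 5 of 9, against 4711 genes (47.6%). Not called by edgeR were Vegfa, Vegfb and Angpt2 between endothelial and mural cells, Vegfa, Kdr and Tek between tumor and mural cells, and Vegfb, Kdr, Nrp1 and Tek between macrophages and mural cells. Of these DESeq2 called Vegfa between endothelial and mural cells and Kdr between tumor and mural cells, the latter from 1 and 2 UMIs. Without shNC 2 the tumor to macrophage count was 4 of 9 members (5626 of 9545 genes), and without shSELP 1 the tumor to mural count was 3 (2308 of 8601 genes). The mural sums came from 3 libraries, since shNC 1 had 4 mural cells. Scaling by DESeq2 moved the median over all genes by more than 0.1 in 4 of the 6 comparisons, most for macrophages against mural cells (from 0.20 to -0.12), where the share of called genes that were higher moved from 57.7% to 44.5%. The fitted changes by edgeR also include a scaling (TMM) that CPM values and pooled ratios lack, so their sizes differ. Pooled tumor to macrophage ratios of Vegfb (2.95) and Pgf (5.23) were larger than the fitted changes. So was the pooled endothelial to macrophage ratio of Kdr (268).

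Partner genes of the pathway and genes that VEGF induces in endothelial cells were tested beside the members. Of 9 partner genes, 8 were higher in endothelial than in tumor cells (54.4% of all genes were called there, in either direction) and 7 higher than in macrophages (61.1%), among them Ptprb, the phosphatase that acts on Tek (9.97 against macrophages, adjusted p 1.5e-14 by edgeR). Angpt1, the ligand that activates Tek, had 1, 1, 4 and 13 UMIs in mural cells and 0, 0, 1 and 0 in endothelial cells, and was lower in endothelial cells. Of 10 induced genes, 9 were higher in endothelial than in tumor cells, with Pdgfb at 7.87 (adjusted p 1.9e-11), and 8 higher and 2 lower than in macrophages. Of the genes counted here as higher than in tumor cells, Sema3f, Vegfc, Flt4, Sema3c, Apln, Dll4, Cxcr4 and Aplnr had 0, 1, 1, 2, 0, 0, 1 and 1 tumor UMIs. They were tested because of their UMIs in other types, so these 2 counts are partly set by the filter. The same holds for the counts against macrophages, where Esm1 had 0 UMIs in both groups. Vegfc had 1 and 0 macrophage UMIs in shNC and shSELP, Sema3f 0 and 2, and Unc5b 0 and 2. Against mural cells, 6 partner genes and 6 induced genes were higher in endothelial cells (22% of all genes were called). These are partly set by the filter as well, with 0 mural UMIs of Flt4, Vegfc, Dll4, Aplnr and Esm1 in both groups. Of 12 HIF target genes, tumor cells had 2 higher and 7 lower than macrophages, and endothelial cells 4 higher and 7 lower than macrophages, beside 66.4% and 61.1% of all genes called.

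Over 31 sums of a type and a library and 6067 genes, the profiles of Tgfbi (Pearson r 0.812), Mmp14 (0.799) and Cstb (0.773) were the 3 most like that of Vegfa. Most like Kdr were Paqr5 (0.953), Adgrl4 (0.951), Slco1c1 (0.951), Ptprb (0.95) and Tmem252 (0.947). Among the other members, Tek came at rank 6 of the profiles like Kdr (r 0.947), Flt1 at rank 52 (0.831) and Nrp1 at rank 347 (0.561).

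In the mouse genome mm10 (GRCm38), the receptor genes lie at chr5:147561604-147726011 on the minus strand (Flt1), chr5:75932827-75978458 on the minus strand (Kdr), chr8:128358604-128503363 on the plus strand (Nrp1), chr4:94739289-94874976 on the plus strand (Tek) and chr4:118471191-118490061 on the minus strand (Tie1). The ligand genes lie at chr17:46016993-46032369 (Vegfa), chr19:6982473-6987651 (Vegfb), chr12:85166635-85177790 (Pgf) and chr8:18690263-18741562 (Angpt2), all on the minus strand. The promoter bases, up to 250 before the gene, of Flt1 (chr5:147726012-147726261, minus), Kdr (chr5:75978459-75978705, minus) and Tek (chr4:94739039-94739288, plus) follow from RefSeq GRCm38.p6, read 5' to 3' on the strand of the gene, with the ETS-type motif AGGAAG, or CTTCCT on the other strand, in capitals. Flt1 has 2 matches on its own strand, and Kdr and Tek have 0. Of all 32851 promoters, 29.5% have the motif on either strand, and 3 of the 10 promoters of members do, those of Flt1, Nrp1 and Tie1. These 10 belong to 8 members, since the set has no promoter of Angpt2.
Flt1: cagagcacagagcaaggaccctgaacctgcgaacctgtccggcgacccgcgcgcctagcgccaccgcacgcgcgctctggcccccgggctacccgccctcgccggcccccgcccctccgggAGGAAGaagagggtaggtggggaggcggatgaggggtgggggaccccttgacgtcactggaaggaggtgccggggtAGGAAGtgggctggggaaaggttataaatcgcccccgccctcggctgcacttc
Kdr: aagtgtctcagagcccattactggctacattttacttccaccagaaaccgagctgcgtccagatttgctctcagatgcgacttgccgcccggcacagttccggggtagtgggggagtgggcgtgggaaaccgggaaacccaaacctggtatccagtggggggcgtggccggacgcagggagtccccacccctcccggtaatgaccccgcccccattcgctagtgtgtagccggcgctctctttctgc
Tek: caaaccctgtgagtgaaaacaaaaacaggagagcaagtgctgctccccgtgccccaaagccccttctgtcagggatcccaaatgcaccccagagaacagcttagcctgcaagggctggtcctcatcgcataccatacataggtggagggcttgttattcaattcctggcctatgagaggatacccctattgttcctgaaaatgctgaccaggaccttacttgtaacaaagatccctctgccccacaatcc

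Between shSELP and shNC, no member passed the test in tumor cells. Of 6 members tested by edgeR, 0 were called at an adjusted p under 0.05, against 41 of 9709 genes (0.422%), while 2 passed 0.05 before adjustment (1257 of all genes) and 0 passed with DESeq2. Vegfa stood at 102 and 51.6 CPM in shNC and 39.7 and 20.6 in shSELP, from 422, 143, 25 and 9 UMIs, so the shSELP values were under the shNC values without overlap. For Vegfa the log2 fold change was -1.37 (SE 0.40, edgeR adjusted p 0.191). That adjusted p of Vegfa ran from 1.95e-06 without shNC 2 to 0.49, and was under 0.05 also with no low-count filter (0.000161) and with the replicate number as a block (0.00899). Nrp1 stood at 6.26 and 16.3 CPM in shNC and 28.6 and 64.0 in shSELP, with both shSELP libraries above both shNC libraries. The fold change of Nrp1 was 1.97 in log2 (SE 0.48, edgeR adjusted p 0.115), with a range from 6.02e-06 without shNC 2 to 0.469, and values of 1.1e-05 with no filter and 0.00179 with the block. The median over the 6 members was 0.01, beside -0.01 over all genes. Vegfb, at 45.7 and 49.8 CPM in shNC and 71.4 and 66.3 in shSELP, also did not overlap (0.47, SE 0.23, adjusted p 0.415), and Flt1, Pgf and Angpt2 had higher adjusted p values. With clusters in place of gates the values were -1.12 for Vegfa (adjusted p 0.215) and 1.32 for Nrp1 (0.200).

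The markers of the tumor gate itself differed between libraries and were not tested here. All 8 had UMIs, and they summed to 3103, 2328, 1869 and 1973 CPM, both shSELP libraries below both shNC libraries, with H19 the highest in shNC and Prph in shSELP. The 4 tumor genes outside the gate summed to 1477, 1173, 1207 and 896 CPM. The 8 macrophage markers summed to 492, 514, 615 and 556 CPM in tumor-gated cells. Of these sums, Fn1 alone made up 447, 479, 592 and 505 CPM. In the lists around Vegfa, 0 of 10 HIF targets were called in tumor cells (2 at unadjusted p, 0 by DESeq2), with 9 of the 10 negative and a median of -0.86. The shNC libraries were far apart, with means of 304 CPM (SD 273) for Slc2a1, 70.1 (58.8) for Bnip3 and 29.7 (26.1) for Car9. In shSELP these means were 92.7, 39.0 and 18.7 CPM, and the groups overlapped for these genes. Pdk1 and Egln3 did not overlap, but Pdk1 passed the low-count filter through the shNC libraries alone. Of 4 partner genes 0 were called (1 at unadjusted p, 0 by DESeq2), and of 2 induced genes 0 (0 and 0).

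The responses of tumor cells and macrophages were also compared with each other in 1 fit. Nrp1 was called, with a response in tumor cells 2.57 above that in macrophages in log2 (SE 0.50, edgeR adjusted p 0.0294). Both shSELP libraries were above both shNC libraries for Nrp1 in tumor cells, and below both in macrophages. The Nrp1 call was lost without shNC 1 (adjusted p 0.709), without shNC 2 (0.0603), with thinned cells (0.46), with clusters (0.214) and with the looser gate (0.154), out of a range from 2.73e-07 to 0.709. Vegfa went the other way, at -1.71 (SE 0.41, adjusted p 0.0999), and was under 0.05 with thinned cells (0.0203), with no filter (0.00543) and without shSELP 1 (0.00142), out of a range up to 1. In all, 1 of 9 members was called, against 28 of 10964 genes (0.255%), with 2 at an unadjusted p under 0.05 (913 of all genes) and 1 by DESeq2. Of the 9, Tek, Kdr and Tie1 had 0, 1 and 3 UMIs in tumor cells and entered the fit through its endothelial sums, so their missing calls say nothing, and Flt1, Pgf, Vegfb and Angpt2 were not called.

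In macrophages, 0 of 6 members were called by edgeR, against 24 of 10842 genes (0.221%), with 2 at an unadjusted p under 0.05 (1456 of all genes) and 0 by DESeq2. Vegfa stood at 333, 307, 347 and 465 CPM, both shSELP libraries above both shNC libraries, shSELP 1 narrowly. In log2 the difference of Vegfa was 0.40 (SE 0.15, edgeR adjusted p 0.330, range 0.0203 with no filter to 0.693). Nrp1 stood at 34.4, 37.8, 25.9 and 19.8 CPM, both shSELP libraries below both shNC libraries. For Nrp1 the log2 fold change was -0.63 (SE 0.14, edgeR adjusted p 0.143), with 0.000583 with no filter, 0.0255 with clusters and 0.793 at most. Flt1, at 27.1, 49.4, 20.1 and 39.9 CPM, overlapped between the groups, as did Kdr. Vegfb (15.1 and 17.3 in shNC, 19.6 and 17.4 in shSELP) and Pgf (4.70 and 3.97, 3.41 and 3.59) did not overlap, by narrow gaps, and were not called (adjusted p 0.499 and 0.752). The median over the members was -0.02, beside 0.00 over all genes. The 4 partner genes, 4 induced genes and 11 HIF targets tested gave 0 calls (1, 1 and 2 at unadjusted p, 0 each by DESeq2). With DESeq2 the share of called genes that were higher in shSELP moved from 50% to 60.2%.

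In microglia, the resident macrophages of the brain, 0 of 4 members were called by edgeR, against 21 of 7549 genes (0.278%), with 1 at an unadjusted p under 0.05 (956 of all genes), and DESeq2 gave 0 of them an adjusted p. Vegfa stood at 20.9 and 47.1 CPM in shNC and 62.7 and 87.6 in shSELP, from 11, 56, 145 and 102 UMIs, with no overlap. Vegfa differed by 0.95 in log2 (SE 0.30, edgeR adjusted p 0.211), with 0.0237 with no filter, 0.0191 without shSELP 1, 0.000969 with the replicate block and 0.62 at most. Nrp1, at 93.0, 74.0, 75.7 and 69.6 CPM, Flt1 and Vegfb overlapped between the groups. Of the lists, 2 partner genes, 4 induced genes and 8 HIF targets gave 0 calls (0, 2 and 3 at unadjusted p, and 1 by DESeq2, Ldha).

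In endothelial cells, 1 of 7 members was called by edgeR, against 48 of 5145 genes (0.933%), with 4 at an unadjusted p under 0.05 (708 of all genes) and 1 by DESeq2. The called member was Pgf, at 158, 56.8, 2.64 and 2.01 CPM from 16, 10, 4 and 1 UMIs. Both shNC libraries were above both shSELP libraries, and Pgf fell (log2 fold change -5.17, SE 0.71, edgeR adjusted p 0.00644). Pgf passed the low-count filter through the shNC libraries alone, where it was high, so this direction is tied to the filter. The call was lost without shNC 1 (adjusted p 0.153), without shSELP 2 (0.324), with clusters (0.198) and with the looser gate (0.12), out of a range from 6.88e-13 to 0.324, and Pgf had too few UMIs to be tested with thinned cells or without the top Scrublet scores. In shNC the Pgf UMIs came from single cells: all 16 from 1 cell of 19 in shNC 1, and all 10 from 1 cell of 29 in shNC 2. The 4 Pgf UMIs of shSELP 1 came from 3 cells of 334 and the 1 of shSELP 2 from 1 cell of 73. The 2 shNC cells had UMIs of 8 and 7 of the 8 endothelial markers, of 0 mural markers and of 2 and 1 dendritic markers, and the shNC 2 cell of 2 oligodendrocyte markers. Of the 4 shSELP cells with Pgf, 2 had UMIs of 5 and 3 mural markers, with 21 and 29 Rgs5 UMIs.

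Apln, the ligand of a receptor on endothelial cells and a gene that VEGF induces at the tips of growing vessels, was counted in the same cells as Pgf. The shNC 1 cell with Pgf held 15 of the 15 Apln UMIs of its gate, and the shNC 2 cell 20 of 21. In shSELP 1, 1 cell had 2 Pgf UMIs and 16 of the 24 Apln UMIs, while the other 2 cells with Pgf there had 0 Apln UMIs, as did the cell with Pgf in shSELP 2. Of 6 cells with Pgf, 3 thus had Apln, and 3 of 6 cells with Apln had no Pgf. Apln stood at 148, 119, 15.9 and 12.1 CPM, both shNC libraries above both shSELP libraries, and fell (-3.12, SE 0.37, edgeR adjusted p 0.00244), lost with clusters (0.136, range 5.18e-10 to 0.136). Aplnr, its receptor, stood at 59.3, 62.4, 2.64 and 10.1 CPM and also fell (-3.66, SE 0.72, adjusted p 0.0451). The Aplnr call was lost without any 1 library (0.199 without shNC 1, 0.201 without shNC 2, 0.966 without shSELP 1 and 0.811 without shSELP 2), with clusters (0.214), with the looser gate (0.124) and with the stricter gate (0.0701), out of a range from 3.18e-05 to 0.966. Of 8 induced genes tested these 2 were called, of 6 partner genes 0 (4 at unadjusted p, 0 by DESeq2) and of 8 HIF targets 0 (1 and 0), beside 0.933% of all genes. Apln and Aplnr passed the low-count filter through the shNC libraries alone, where they were high, so their directions are tied to the filter. The lists were not compared by a test. Cells with at least 5 Apln UMIs numbered 1, 1, 2 and 1, or 5 of 455.

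**Figure D2:**
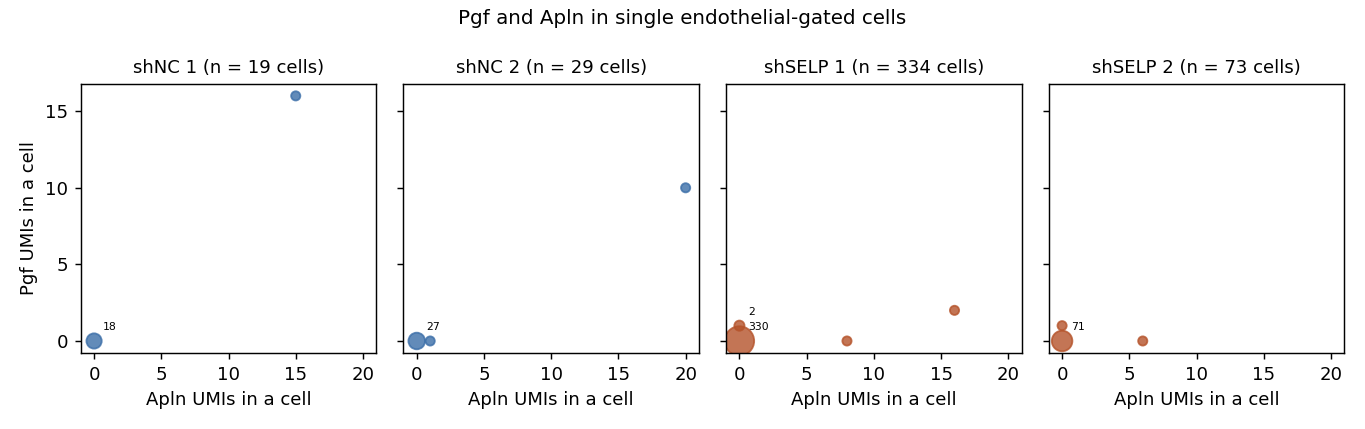
Pgf UMIs (vertical) against Apln UMIs (horizontal) of endothelial cells, 1 panel per library, with larger points for more cells. The cell with 16 Pgf UMIs in shNC 1 has 15 Apln UMIs, and the cell with 10 in shNC 2 has 20.

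The other members in endothelial cells were not called. Angpt2 stood at 98.9, 102, 7.93 and 64.5 CPM, both shSELP libraries below both shNC libraries, with 22 of the 32 UMIs of shSELP 2 in 1 cell. For Angpt2 the log2 fold change was -1.98 (SE 0.82, edgeR adjusted p 0.309), with 0.00132 with no filter, 0.0164 with the replicate block and 0.999 at most. Flt1 stood at 2353, 3184, 4044 and 3701 CPM, both shSELP libraries above both shNC libraries. Between the groups Flt1 differed by 0.48 in log2 (SE 0.20, edgeR adjusted p 0.308), with 0.000219 without shNC 2, 0.04 with no filter and 0.999 at most. Tek, at 158, 204, 295 and 304 CPM, was also higher in both shSELP libraries (0.69, SE 0.25, adjusted p 0.242, range 0.0805 to 0.999). Tie1 was higher in both as well (0.47, SE 0.28, adjusted p 0.494), while Kdr (-0.15, SE 0.31) and Nrp1 (0.24, SE 0.34) overlapped. The median over the members was 0.24, beside 0.01 over all genes.

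Markers of other cells differed between libraries within the endothelial gate and were not tested as lists. The 4 red cell genes summed to 0, 0, 6372 and 6.04 CPM, with Hbb-bs the highest in shSELP 1 (3888). The neutrophil markers summed to 9.89, 0, 1507 and 40.3 CPM, with S100a8 at 1487 in shSELP 1. The dendritic markers, led by Fscn1 at 138 and 153 CPM in shNC, summed to 158, 204, 45.6 and 58.4 CPM. The mural markers summed to 158, 102, 357 and 218 CPM, with Rgs5 the highest in 3 of 4 libraries. The macrophage markers, led by Fn1, summed to 1127, 1067, 851 and 844 CPM. The microglia markers, led by Sparc, summed to 2383, 2060, 1394 and 1775 CPM. The 4 tumor genes outside the gate summed to 208, 159, 85.2 and 88.6 CPM. In each of these last lists both shNC libraries were above both shSELP libraries. How many markers of a list had a UMI depends on depth, which was 101150, 176200, 1513226 and 496407 UMIs.

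Mural cells were not tested between the groups, since shNC 1 had 4 of them. There Pgf stood at 92.2, 201, 76.3 and 187 CPM, with the groups overlapping. Angpt2 had 0, 5, 6 and 47 UMIs, with shSELP 2 the highest at 225 CPM, where 1 cell of 28 held 24 of the 47. Flt1 was 307, 503, 229 and 182 CPM from 10, 45, 51 and 38 UMIs, both shNC libraries above both shSELP libraries. Vegfb was 92.2, 55.9, 22.4 and 9.58 CPM from 3, 5, 5 and 2 UMIs, again with both shNC libraries above.

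The CD11b+ experiment has 1 library per group, so ratios are given with counting intervals and no test. In its macrophages, 1724 cells in shNC and 2019 in shSELP, Vegfa stood at 179 and 166 CPM (ratio of shSELP to shNC 0.927, 0.861 to 0.998). Flt1 was at 14.8 and 23.7 CPM (ratio 1.60, 1.27 to 2.02), and Kdr at 1.45 and 4.72 (3.26, 1.67 to 6.83). Pgf was at 5.07 and 2.06 CPM (0.406, 0.216 to 0.728), Nrp1 at 31.6 and 35.8 (1.13, 0.955 to 1.34), and Vegfb at 22.6 and 24.1 (1.07, 0.869 to 1.31). Of the 6 members with at least 50 UMIs, 3 differed past 1.5-fold, against 1234 of 8968 genes (13.8%), and with TMM factors, which scale libraries on their common genes, 2 did, Flt1 being then at 1.5. In microglia 0 of 2 members did, against 430 of 2769 genes (15.5%), with Vegfb at 1.16 (0.732 to 1.82) and Nrp1 at 1.14 (0.748 to 1.71). Vegfa in macrophages was thus above shNC in both shSELP libraries of the mix and below it in the CD11b+ cells, a difference between the experiments that was not tested. Flt1 and Kdr, past 1.5-fold here, overlapped between the groups in macrophages of the mix.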

How the data were processed

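Single-cell RNA of the whole-tumor mix (2 shNC and 2 shSELP libraries) and of CD11b+ cells (1 and 1) was used. The deposited values are counts of UMIs per gene and cell, which the authors made with Cell Ranger 1.3 on mm10 and, per their methods, filtered on genes per cell and mitochondrial share and drew to equal cell numbers. Cells below 500 genes or above 10% mitochondrial UMIs were left out, and 5 barcodes in the mix and 3 in the CD11b+ cells occurred in more than 1 library. Cells were gated into 11 types by 8 markers each.

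UMIs were summed per gate and library where at least 5 cells were present. The sums were tested with edgeR 4.0.16 (TMM scaling, filterByExpr, quasi-likelihood test, adjustment over all genes tested), with limma 3.58.1 in R 4.3.3. Between types, the library was a term of the fit, and sums of the tumor, macrophage, endothelial and mural gates shared 1 estimate of the spread. The alternatives were DESeq2 1.42.0, no low-count filter, each library left out in turn, the replicate number as a block, thinning to 2000 UMIs, a stricter gate (4 markers, a lead of 3) or a looser one (2 and 1), dropping cells in the top 5% of Scrublet scores, and clusters (2000 variable genes, 12 components, Leiden 0.8) in place of gates. Intervals are exact at 95%, a count of 0 is given a floor of 3 UMIs, and ratios of CD11b+ cells were taken for genes with at least 50 UMIs. Likeness of profiles is the correlation of log2(CPM + 10) over sums of at least 20 cells, for genes that average 20 CPM or more. The procedures were tested on simulated data with Python 3.11.15, numpy 2.4.6, scipy 1.17.1, pandas 2.3.3 and scanpy 1.11.5, and figures were drawn with matplotlib 3.10.9.

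The 9 members are named in each comparison whatever their values, where they had enough UMIs to be tested. From 3 further lists (partner genes, 12 in the mix, genes that VEGF induces in endothelial cells, 10, and HIF targets, 12), the text gives counts and a few called examples. It also names genes of these lists that were tested because of their UMIs in other types. The members and lists were chosen with earlier results of these data known. One planned comparison and some genes are not reported here.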

Additional observations from a re-analysis of the deposited data

Results flagged for a closer look

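The response of Nrp1 to the hairpin was called as different between tumor cells and macrophages, by 2.57 in log2 in a test of the difference itself (edgeR adjusted p 0.0294). The call was lost without shNC 1 (adjusted p 0.709), without shNC 2 (0.0603), with thinned cells (0.46), with clusters (0.214) and with the looser gate (0.154).

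Some members had UMIs in cell types that the comparisons above do not use, at a pooled level above that of T and NK cells. Vegfa stood at 192 CPM in fibroblasts and 159 in oligodendrocytes, against 36.4 in T and NK cells. Nrp1 stood at 329 CPM in fibroblasts, against 41.3. The fibroblasts were 26 cells from 2 libraries, 6 in shNC 1 (24 Vegfa and 17 Nrp1 UMIs) and 20 in shSELP 1 (21 and 60). The oligodendrocytes were 65 cells, with 0, 51, 7 and 48 Vegfa UMIs in the 4 libraries. Kdr stood at 16.4 CPM in dendritic cells, against 0.799. The dendritic cells were 216, with 6, 13, 8 and 7 Kdr UMIs. None of these was tested.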

How the results depend on the processing

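These alternatives moved the number of members called by more than 1.5 times. With no low-count filter, the responses gave 2 members in tumor cells (0 with the filter), 2 in macrophages (0), 1 in microglia (0) and 3 in endothelial cells (1), and the difference of tumor and macrophage responses 2 (1). Calls over all genes went up there too, to 422 of 16576, 665 of 17059, 199 of 14935, 220 of 14513 and 118 of 18787. With clusters the counts were 1 in macrophages, 0 in endothelial cells and 0 for the difference. The looser gate gave 0 in endothelial cells and 0 for the difference, and thinning and leaving out the top Scrublet scores each gave 0 in endothelial cells. In CD11b+ macrophages (3 members past 1.5-fold), the stricter gate gave 1 and thinning gave 1, where Pgf (ratios 0.403 and 0.41) and Kdr (2.12 and 1.90) fell under 50 UMIs and were no longer counted. In CD11b+ microglia (0) the looser gate gave 1, Vegfa at a ratio of 0.56 (0.325 to 0.934), below 1 where both shSELP libraries of the mix lay above shNC. The mean share of macrophages with Vegfa was 43.7% thinned and 79.5% unthinned. The sign of 1 log2 fold change turned, Vegfb between endothelial cells and macrophages, at 0.023 with thinned cells.

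With each library left out in turn, the counts ran from 0 to 2 in tumor cells (2 without shNC 2), 0 to 1 in microglia, 0 to 2 in endothelial cells, 0 to 2 for the difference, 4 to 7 for tumor cells against macrophages, and 3 to 6 for tumor against mural cells. Where this leaves 1 library in a group, that library is assumed to vary like the others.

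The replicate number of the labels as a block gave 2 members in tumor cells, 1 in microglia, 2 in endothelial cells and 0 in macrophages. Deviations of libraries with the same number correlated at -0.00101 in tumor cells, -0.108 in macrophages, 0.0499 in microglia and 0.0205 in endothelial cells, so the numbers were not taken to pair the libraries. The crossed pairing in macrophages, added after the data were seen, gave 60 genes and 0 members, beside 82 genes with the block and 24 without. The block was not run where the library is already a term. No paired analysis was possible for the CD11b+ ratios and the shares because they come from no test. The response of mural cells was not tested with the gate used, since shNC 1 had 4 cells. It was not run under any alternative either, although shNC 1 had 5 mural cells with the looser gate and 16 with clusters.

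Over all genes, counts of called genes ran from 3 to 479 in tumor cells (41), 0 to 665 in macrophages (24), 0 to 322 in microglia (21), 0 to 307 in endothelial cells (48) and 2 to 118 for the difference (28). Of 509 log2 fold changes of named genes under alternatives, 448 kept their direction and their side of the threshold, 41 lost the call and 19 gained it. Of 132 counts of members, 104 lay within 1.5 times the reported count. For the CD11b+ macrophage ratios of 6 members, 30 of 30 lay within the counting interval. In CD11b+ microglia, Nrp1 with thinned cells (0.738) lay outside it (0.748 to 1.71).

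With 2 libraries per group, responses of a size that 2 libraries cannot separate from their spread go uncalled, and a missing call does not show that values were equal. Endothelial and mural gates of shNC held few cells. RNA carried over between cells was not removed, and cells that match no gate were not followed.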
